A study of Mus musculus with 6 samples.

Results

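To ascertain how the IL-6 signaling route stood in hepatocytes overexpressing Aloxe3, 10 genes were examined: the ligand Il6, the receptors Il6ra, Il6st, Osmr and Lifr, the kinase Jak1, the transcription factors Stat3, Cebpb and Cebpd, and the inhibitor Socs3. They were taken by name from the 41388 genes of the table, and all 10 were listed. The libraries came from primary hepatocytes of C57BL/6J mice, cultured overnight after collagenase digestion and then given adenovirus encoding β-gal (beta galactosidase, the control protein; replicates 1, 2 and 3) or Aloxe3 (a lipoxygenase; replicates 7, 8 and 9), with RNA collected 24 h later. Both groups therefore carried adenovirus, at about 1000000 particles per 1000000 cells, and no untreated cells are among these libraries. The promoter that drives the transgene and the age of the mice are not given in the sources used here.

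IL-6 and its relatives are cytokines that bind a specific receptor chain, such as the IL-6 receptor encoded by Il6ra, and then engage the shared chain gp130, encoded by Il6st. In the relatives oncostatin M and LIF, the chains encoded by Osmr and Lifr pair with gp130. The receptor complex activates JAK kinases, which phosphorylate STAT3, and STAT3 switches on Socs3, whose product blocks the receptor complex in turn. In the liver, STAT3 acts together with C/EBPβ and C/EBPδ, encoded by Cebpb and Cebpd, on the genes of acute phase proteins such as fibrinogen and haptoglobin. Much of this route works through phosphorylation of proteins already present, which transcript levels do not measure.

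The libraries held 25521908 to 32431318 reads, and levels are given as RPKM, the read counts corrected for gene length and for the size of the library. Aloxe3 itself, the check of the labels, was at 2.04, 2.06 and 1.74 RPKM in the β-gal libraries and at 42.3, 45.8 and 56.3 RPKM in the Aloxe3 libraries (log2 fold change 4.05, SE 0.101, limma adjusted p = 4.74e-06). Fold changes are differences of log2(RPKM + 1), which understate the change of low genes, and p-values come from limma, adjusted over the 12693 genes whose mean level reached 0.5 RPKM. Nothing in the labels says that the libraries of a group came from separate cultures or animals, so p-values measure the spread between these libraries, which may be technical. Of the hepatocyte markers, Alb was at 4361.8 to 4551.7 RPKM and Hnf4a at 25.4 to 29.3 RPKM, while Cyp3a11 stayed at 0.519 to 0.767 RPKM, Cps1 at 0.915 to 1.64 RPKM, and Tat and Pck1 were below the filter. Of the 10 markers 8 were tested, and 1 was called, Ttr, the transthyretin gene, which fell from 124.1 ± 6.5 to 100.5 ± 1.1 RPKM (SD, n = 3 each; log2 fold change -0.30, SE 0.043, limma adjusted p = 0.0448), where 0.394% of all tested genes were called and 0.0394% called lower. Log2 fold changes of the 8 were above 0 for 4 and below 0 for 4, from -0.30 to 0.33 (Cps1, limma adjusted p = 0.161), and their part in the levels of the 10 genes was not tested. Aloxe3 replicate 9 stood apart from the other libraries of its group, where the chi-square over gene counts was 8.26 and 8.99 per degree of freedom. Every other pair of replicates was at 3.24 to 5.05. Values without Aloxe3 replicate 9 are given for Socs3, Cebpb and Cebpd, where it was among the highest libraries. They are also given for Il6ra, Il6st, Jak1 and Stat3, where it was among the lowest.

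The promoters of Il6 and Socs3 were the ones of this route that held a motif of its own transcription factors, and they are printed beside those of the fibrinogen genes Fga and Fgb, secreted targets that are taken up further on. Each sequence runs from 250 bases before to 50 bases after the start of the gene in RefSeq (GRCm38.p6), and capitals mark matches to TTCNNNGAA, the palindromic STAT motif, or to TTGCNNAA and its reverse complement TTNNGCAA, a C/EBP motif. The windows are chr5:30012864-30013163 for Il6 (forward strand), chr11:117969317-117969616 for Socs3 (reverse strand), chr3:83025903-83026202 for Fga (forward strand) and chr3:83049814-83050113 for Fgb (reverse strand).
Il6: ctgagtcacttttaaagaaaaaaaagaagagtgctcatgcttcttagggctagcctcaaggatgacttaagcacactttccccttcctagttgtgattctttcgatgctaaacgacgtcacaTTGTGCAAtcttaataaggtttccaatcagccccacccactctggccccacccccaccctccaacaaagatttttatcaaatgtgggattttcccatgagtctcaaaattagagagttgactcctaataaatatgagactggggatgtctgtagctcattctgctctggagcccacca
Socs3: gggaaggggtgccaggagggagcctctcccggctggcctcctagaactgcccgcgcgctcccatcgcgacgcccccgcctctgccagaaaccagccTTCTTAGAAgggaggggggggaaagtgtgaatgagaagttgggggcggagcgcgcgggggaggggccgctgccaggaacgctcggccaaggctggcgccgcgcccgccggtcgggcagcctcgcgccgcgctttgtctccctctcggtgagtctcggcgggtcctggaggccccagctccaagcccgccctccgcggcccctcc
Fga: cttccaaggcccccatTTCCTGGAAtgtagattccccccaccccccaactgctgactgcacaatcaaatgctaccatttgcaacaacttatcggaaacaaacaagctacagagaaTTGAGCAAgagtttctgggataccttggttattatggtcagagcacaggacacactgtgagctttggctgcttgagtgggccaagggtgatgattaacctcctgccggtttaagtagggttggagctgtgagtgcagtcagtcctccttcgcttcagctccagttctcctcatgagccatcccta
Fgb: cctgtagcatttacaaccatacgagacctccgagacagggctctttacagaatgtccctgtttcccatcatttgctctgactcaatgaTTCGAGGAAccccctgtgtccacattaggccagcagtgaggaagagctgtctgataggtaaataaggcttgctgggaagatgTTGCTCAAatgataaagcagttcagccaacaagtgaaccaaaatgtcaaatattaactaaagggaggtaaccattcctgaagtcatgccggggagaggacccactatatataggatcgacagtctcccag

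With the first base of the transcript as position 1, the C/EBP match of Il6 begins at position -128 and the STAT match of Socs3 at position -154. Fga held a STAT match from position -234 and a C/EBP match from position -135, and Fgb held them from positions -162 and -80. No match of one motif overlapped a match of the other. Of 32851 promoter windows of this length, 8.3% held the STAT motif and 10.8% the C/EBP motif on either strand. RefSeq windows were matched for 9 of the 10 genes, all except Cebpd, and the other windows of the route (those of Il6ra, Il6st, Osmr, Lifr, Jak1, Stat3 and Cebpb) had neither motif. Of the other secreted targets past the threshold, Fgg and Crp had windows with neither motif, and Hp was not matched. A match is a description of the letters and does not show binding.

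Across the route, 0 of the 9 genes tested were past an adjusted p of 0.05 in Aloxe3-overexpressing cells, where 0.394% of all tested genes were called. The unadjusted p was under 0.05 for 0 of the 9, against 12.7% of all tested genes (7.31% higher and 5.42% lower). The log2 fold change was above 0 for 7 of the 9, against 52.4% of all tested genes, with a median of 0.040 against 0.005 and a range from -0.01 to 0.14. Groups did not overlap for 1 of the 9, Cebpb, against 19.9% of all tested genes. With voom on derived reads, another method within limma, which called 1.36% of all genes, 0 of the 9 were called and 0 had an unadjusted p under 0.05.

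**Figure D1:**
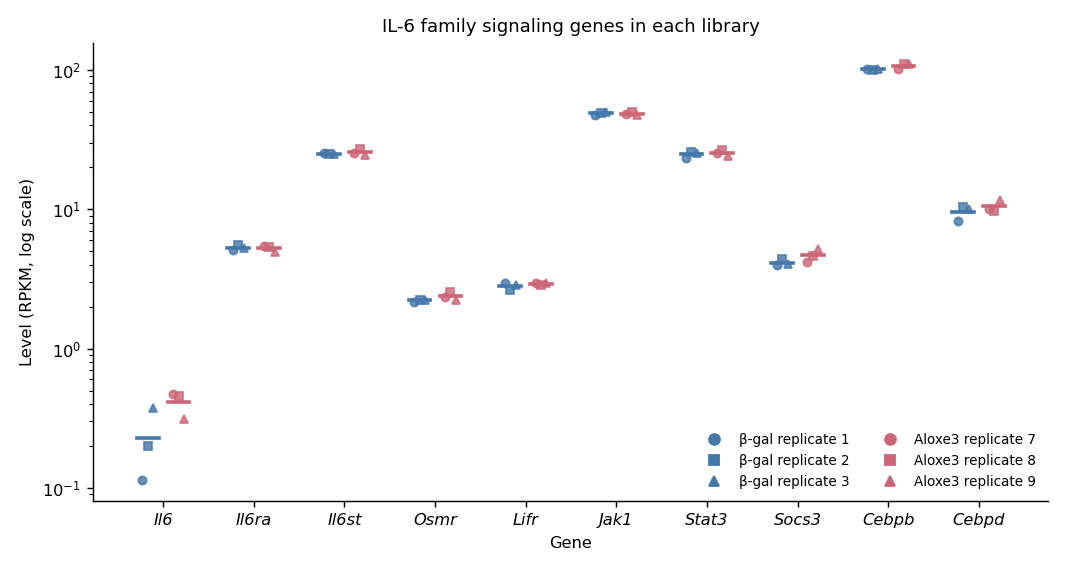
Level of the 10 genes in RPKM on a log axis. Each point is 1 library, blue for β-gal and red for Aloxe3, and each bar is the mean of 3 libraries. Apart from Il6, which rests on 4 to 15 reads, the points of both groups lie close together for each gene, from Osmr near 2.3 RPKM up to Cebpb near 104.2 RPKM.

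Il6 (chromosome 5, 30013114 to 30019981, forward strand), the ligand, had very few reads in these cultures. It had 4, 7 and 12 reads in the β-gal libraries and 13, 15 and 9 reads in the Aloxe3 libraries. In RPKM these were 0.114, 0.199 and 0.373 against 0.469, 0.454 and 0.313. The highest β-gal library lay above the lowest Aloxe3 library, so the groups overlapped. The mean was 0.229 ± 0.13 RPKM in control cells and 0.412 ± 0.086 RPKM after Aloxe3 (SD, n = 3 each; exact permutation test, two-sided p = 0.2, where 0.1 is the smallest p that 3 against 3 allow). As its mean was under 0.5 RPKM, Il6 was not among the 9 genes tested, and without that filter, where 0.028% of 24989 genes were called, its log2 fold change was 0.20 (SE 0.089, 95% interval -0.01 to 0.42, limma adjusted p = 0.576). The exact 95% Poisson interval of the lowest library was 1.09 to 10.2 reads and that of the highest 8.4 to 24.7 reads, for counting error only.

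IL-6 in the liver is made by macrophages among other cells. Of 10 markers of Kupffer cells and macrophages 5 were tested and 0 called. Their summed level was 158.3 to 163.1 RPKM in the β-gal libraries and 139.8 to 153.3 RPKM in the Aloxe3 libraries. Most of it was Cd68, a lysosomal protein of macrophages and other cells, at 146.6 to 148.7 RPKM with β-gal and, with Aloxe3, 128.8 to 141.4 RPKM (log2 fold change -0.15, SE 0.044, limma adjusted p = 0.262). Of the other tested markers, Lyz2 was at 6.65 to 9.5 RPKM, Adgre1 at 1.47 to 1.99, Csf1r at 1.11 to 1.68 and Marco at 0.705 to 1.18 RPKM. Clec4f, Cd163, Vsig4, Ptprc and Timd4 were below the filter. Clec4f was at no more than 0.0951 RPKM. Cd163 was listed at 0 in every β-gal library and at no more than 0.00842 RPKM in an Aloxe3 library. Groups did not overlap for 1 of the 5 tested markers, Cd68, against 19.9% of all tested genes. The log2 fold changes of the other 4 lay between -0.07 (Lyz2) and 0.06 (Csf1r). Their part in the level of Il6 was not tested. In bulk RNA, fewer cells of a type and less RNA per cell cannot be told apart.

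Il6st (chromosome 13, 112464070 to 112510086, forward strand), which encodes gp130, was the highest of the receptor genes. It was at 25.3, 25.1 and 24.9 RPKM in the β-gal libraries and at 25.2, 27 and 24.6 RPKM in the Aloxe3 libraries. Aloxe3 replicate 8 was the highest of the 6 and Aloxe3 replicate 9 the lowest. The log2 fold change was 0.03 (SE 0.042, limma adjusted p = 0.832), with a 95% interval from -0.07 to 0.12, which in linear terms is 0.95-fold to 1.09-fold of RPKM + 1.

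Il6ra (chromosome 3, 89864059 to 89913196, reverse strand), the chain that binds IL-6, was at 5.14, 5.51 and 5.23 RPKM with β-gal and, with Aloxe3, at 5.43, 5.36 and 4.9 RPKM. Aloxe3 replicate 9 was the lowest of the 6 and a β-gal library the highest, and the others were mixed. Its log2 fold change was -0.01 (SE 0.050, 95% interval -0.13 to 0.10, limma adjusted p = 0.931). Within a library, Il6st was 4.57 to 4.92 times the level of Il6ra with β-gal and 4.65 to 5.03 times with Aloxe3, ranges that overlapped.

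The partner chains for oncostatin M and LIF were lower than either at the gene lengths the authors used. Osmr (chromosome 15, 6813577 to 6874969, reverse strand) was at 2.17, 2.24 and 2.25 RPKM with β-gal and, with Aloxe3, at 2.33, 2.56 and 2.25 RPKM. Here 2 of the 3 Aloxe3 libraries were above every β-gal library and the third was level with the highest of them. The log2 fold change was 0.07 (SE 0.054, 95% interval -0.06 to 0.19, limma adjusted p = 0.635), and 0.030 without Aloxe3 replicate 8. Lifr, on the same chromosome (7090614 to 7197489, forward strand), was at 2.96, 2.64 and 2.88 RPKM with β-gal and, with Aloxe3, at 2.98, 2.85 and 2.96 RPKM, and the groups overlapped. Its log2 fold change was 0.04 (SE 0.052, 95% interval -0.08 to 0.16, limma adjusted p = 0.785), and 0.005 without β-gal replicate 2.

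The level of Il6st relative to Osmr was 11.6, 11.2 and 11.1 in the β-gal libraries and 10.8, 10.6 and 10.9 in the Aloxe3 libraries. These groups did not overlap (0.95-fold, exact permutation test, two-sided p = 0.1). It was the only ratio without overlap among 8 formed between genes of the route, Cebpa included, which were chosen after the values were seen.

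Jak1 (chromosome 4, 101152367 to 101265282, reverse strand), the main kinase bound to gp130, was the best measured gene of the route, with 8882 to 11407 reads per library. It was at 47.8, 48.7 and 50.1 RPKM with β-gal and, with Aloxe3, at 48.2, 50.1 and 47.5 RPKM. The ranges of both groups nearly coincided. The log2 fold change was -0.01 (SE 0.037, limma adjusted p = 0.949), and its 95% interval of 0.94-fold to 1.06-fold of RPKM + 1 was the narrowest of the 9.

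Stat3 (chromosome 11, 100885098 to 100939540, reverse strand) was at 23.5, 25.7 and 25.4 RPKM with β-gal and, with Aloxe3, at 25.5, 26.6 and 24.1 RPKM. The lowest value was that of β-gal replicate 1, and the other libraries overlapped. Its log2 fold change was 0.03 (SE 0.051, 95% interval -0.09 to 0.15, limma adjusted p = 0.842). The ratio of Jak1 to Stat3 was 1.97 ± 0.07 with β-gal and 1.91 ± 0.052 with Aloxe3 (SD, n = 3 each), a difference smaller than 1 SD of the β-gal libraries.

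Socs3 (chromosome 11, 117966079 to 117970047, reverse strand), the feedback inhibitor and a direct target of STAT3, had a log2 fold change close to those of Cebpd and Cebpb. It was at 3.95, 4.4 and 4.07 RPKM in the β-gal libraries and at 4.16, 4.64 and 5.18 RPKM in the Aloxe3 libraries. Aloxe3 replicates 8 and 9 lay above every β-gal library and replicate 7 within their range. The log2 fold change was 0.14 (SE 0.072, 95% interval -0.03 to 0.31, limma unadjusted p = 0.0979 and adjusted p = 0.481). In linear terms the interval reaches from 0.98-fold to 1.24-fold of RPKM + 1. With voom on derived reads the log2 fold change was 0.17 (SE 0.088). Without Aloxe3 replicate 9 the log2 fold change was 0.071, and without replicate 7 it was 0.20. Relative to Stat3, Socs3 was at 0.167 ± 0.0056 with β-gal and at 0.184 ± 0.027 with Aloxe3 (SD, n = 3 each), and the wider spread with Aloxe3 came from replicate 9, at 0.215.

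Cebpb (chromosome 2, 167688915 to 167690418, forward strand), a C/EBP factor induced by IL-6 in hepatocytes, was the highest gene of the route. It was at 101.6, 99.5 and 101.7 RPKM with β-gal and, with Aloxe3, at 101.8, 111.2 and 109.5 RPKM. Every Aloxe3 library was above every β-gal library, though replicate 7 only just. The means were 100.9 ± 1.2 and 107.5 ± 5 RPKM (SD, n = 3 each), a difference that did not pass the test (log2 fold change 0.09, SE 0.042, 95% interval -0.01 to 0.19, limma unadjusted p = 0.0665 and adjusted p = 0.423). Without Aloxe3 replicate 9 the log2 fold change was 0.076. Its gene shares 312 of 1504 exon bases with Tmem189 on the opposite strand in GENCODE M21. Only unambiguous reads were counted, so reads on the shared bases would be left out if counting ignored strand. Their part in the level of Cebpb was not tested. Tmem189 reached 8.11 RPKM at most.

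Cebpd (chromosome 16, 15887286 to 15891031, forward strand), a sister factor that acute phase signals also induce, had the largest SE of the 9. It was at 8.3, 10.4 and 10 RPKM with β-gal and, with Aloxe3, at 10.1, 9.65 and 11.7 RPKM. The lowest value was that of β-gal replicate 1 and the highest that of Aloxe3 replicate 9, and the other 4 libraries were mixed. In GENCODE M21 it shares 562 of 3746 exon bases with Spidr on the opposite strand, which reached 5.71 RPKM at most. Whether these bases lie in the 1180 that the authors' annotation gave Cebpd is not known. The log2 fold change was 0.12 (SE 0.093, 95% interval -0.10 to 0.34, limma adjusted p = 0.619). Leaving out β-gal replicate 1 brought it to 0.031, and leaving out Aloxe3 replicate 9 to 0.045.

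By level over all 6 libraries, the genes ranked Cebpb (104.2 RPKM), Jak1 (48.7), Il6st (25.4), Stat3 (25.1), Cebpd (10), Il6ra (5.26), Socs3 (4.4), Lifr (2.88), Osmr (2.3) and Il6 (0.32). The ranges of Il6st and Stat3 overlapped, with Il6st higher in 3 of the 6 libraries, and those of Il6ra and Socs3 overlapped as well, with Il6ra higher in 5. Every other neighbouring pair was in the same order in 6 of 6 libraries. Among tested genes, Cebpb stood above 96.6%, Jak1 above 91.3%, Il6st above 81.6%, Il6ra above 43.2% and Osmr above 26.6% in mean level. These levels use the gene length in the authors' annotation, which the steps of the values gave as 3343 bases for Il6ra, 1180 for Cebpd and 1086 for Il6, against 8642, 3746 and 2428 exon bases in GENCODE M21. With the longer lengths Il6ra would be at 2.03 RPKM, Cebpd at 3.16 RPKM and Il6 at 0.143 RPKM, so the places of Il6ra and Cebpd depend on the annotation, and Il6ra would then be below Lifr and Osmr. A ratio of RPKM values of the same gene does not depend on the length, but a difference of log2(RPKM + 1) does for low genes.

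How small a change could have been called differs between the genes. At the SE of each gene, the largest p that was called (0.000196) corresponds to a log2 fold change of 0.25 for Jak1, 0.28 for Il6st and Cebpb, 0.34 for Il6ra, Lifr and Stat3, 0.36 for Osmr, 0.48 for Socs3 and 0.62 for Cebpd. In linear terms of RPKM + 1 this is from 1.19-fold for Jak1 to 1.54-fold for Cebpd, and the fold of RPKM itself is larger for low genes. The upper bound of the 95% interval stayed under the callable size in each of the 9. Bound and callable size rest on the same SE, so this restates that no gene was near a call and is no separate test.

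**Figure D2:**
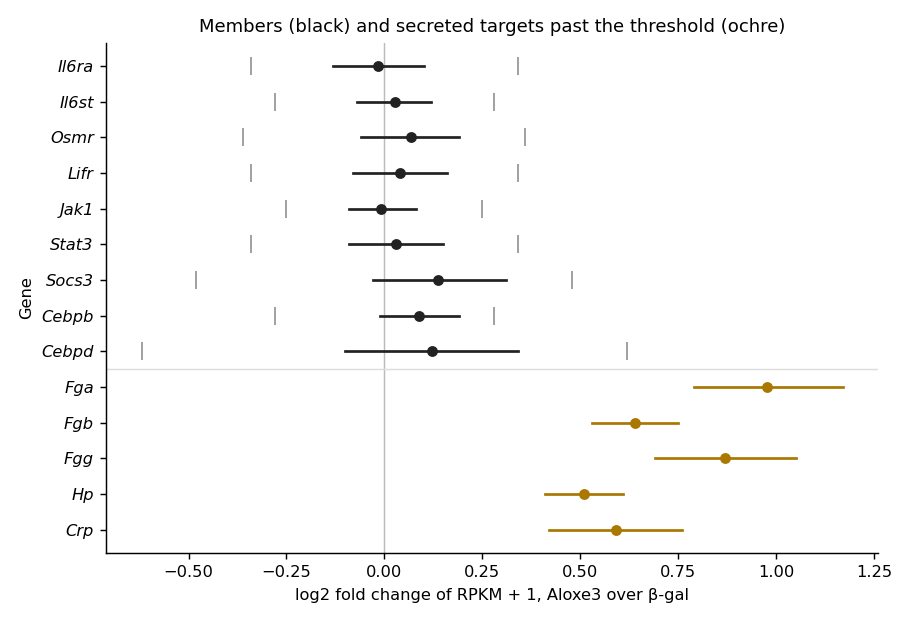
Log2 fold change of RPKM + 1 (x axis, Aloxe3 over β-gal) with its 95% interval for the 9 tested genes of the route (black) and for the 5 secreted targets past the threshold (ochre), 1 gene per row. Grey ticks mark the size at which each black gene would have been called, and rest on the same SE as the interval. Each black interval lies between its ticks, while the ochre intervals start at 0.41 or above.

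Beyond the 10 genes, the rest of the pathway was examined as lists that share some of them. Of 11 ligand genes of the IL-6 family, Lif and Ctf1 were above the filter. Lif, which signals through Lifr and gp130, was at 12.2 ± 0.98 RPKM in control cells and 11.3 ± 0.6 RPKM after Aloxe3 (SD, n = 3 each; log2 fold change -0.10, SE 0.063, limma adjusted p = 0.564). Ctf1, the gene of cardiotrophin, was at 1.37 ± 0.098 and 1.53 ± 0.17 RPKM (SD, n = 3 each; log2 fold change 0.09, SE 0.070). Osm, the oncostatin M gene, was at 0.0333 RPKM or less, and Clcf1 was listed at 0 in every library.

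Among 7 receptor genes 5 were tested and 0 called. Il11ra1, the IL-11 receptor, was at 2.07 ± 0.037 RPKM in control cells and 1.95 ± 0.22 RPKM after Aloxe3 (SD, n = 3 each). Cntfr and Il27ra were below the filter. The median log2 fold change of the 5 was 0.026.

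Of 15 genes for JAK and STAT proteins and their adaptors 14 were tested and 0 called, with 7 log2 fold changes above 0 and 7 below. The unadjusted p was under 0.05 for 1 of the 14 in the higher direction (Jak2) and for 1 in the lower (Ptpn11). Over all tested genes the shares were 7.31% and 5.42%. Jak2, another kinase of gp130, was at 10.1, 10.4 and 10.3 RPKM with β-gal and, with Aloxe3, at 10.9, 11.9 and 10.7 RPKM (log2 fold change 0.11, SE 0.046, limma adjusted p = 0.392). Ptpn11, the phosphatase SHP2 that links gp130 to MAPK signaling, was at 58.4, 58.9 and 59.1 RPKM with β-gal and, with Aloxe3, at 56.6, 55.5 and 53.4 RPKM (log2 fold change -0.09, SE 0.035, limma adjusted p = 0.348). Groups did not overlap for 5 of the 14, against 19.9% of all tested genes. Of these, Jak2, Stat5a and Stat5b were higher with Aloxe3, and Ptpn11 and Stat6 were lower.

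All 15 inhibitors of JAK-STAT signaling were tested and 0 called, with a median of 0.001. The smallest unadjusted p were those of Cish and Ptpn2. Cish, an inhibitor of STAT5 signaling and itself a STAT5 target, was at 4.41, 4.28 and 4.17 RPKM with β-gal and, with Aloxe3, at 3.71, 3.66 and 3.73 RPKM (log2 fold change -0.17, SE 0.042, limma adjusted p = 0.214). Ptpn2, a phosphatase that acts on JAK and STAT proteins, went the other way, with 7.85 ± 0.38 RPKM against 8.73 ± 0.31 RPKM with Aloxe3 (SD, n = 3 each; log2 fold change 0.14, SE 0.047, limma adjusted p = 0.315). Socs1 and Socs2 had log2 fold changes of 0.01 and 0.00.

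In the C/EBP family 5 of 6 genes were tested and 0 called, and the log2 fold changes of all 5 were above 0, from 0.06 to 0.12. Cebpa, the factor of differentiated hepatocytes, was at 18.1, 19.1 and 20.7 RPKM with β-gal and, with Aloxe3, at 20.2, 19.9 and 20.4 RPKM. It was at 0.191 ± 0.013 of the level of Cebpb with β-gal and at 0.188 ± 0.0097 with Aloxe3 (SD, n = 3 each). Cebpg had a log2 fold change of 0.07 (SE 0.038, limma adjusted p = 0.489).

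Downstream, 17 regulators known as targets of STAT3 or C/EBP, 5 of which are also among the 10 genes, were all tested and 0 called. Their median log2 fold change was 0.045, with 12 above 0 and 5 below. Pim1, a kinase gene induced by STAT3, was at 16.8, 18.4 and 19.4 RPKM with β-gal and, with Aloxe3, at 20.3, 22.3 and 20.3 RPKM (log2 fold change 0.19, SE 0.061, limma adjusted p = 0.289). Its relative Pim3 went the other way, at 19.5 ± 0.28 RPKM against 18 ± 0.85 RPKM with Aloxe3 (SD, n = 3 each; log2 fold change -0.11, SE 0.042, limma adjusted p = 0.354). Bcl3, Junb and Mcl1 had log2 fold changes of 0.02, 0.04 and -0.01.

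Secreted acute phase proteins were the single list of the 7 with genes past the threshold. Of its 24 genes 23 were tested, and 5 rose while 0 fell, where 0.355% of all tested genes rose and 0.0394% fell. The median log2 fold change was 0.155, against 0.005 over all tested genes, and 21 values were above 0 and 2 below. The 5 were the fibrinogen genes Fga, Fgb and Fgg, Hp, which encodes haptoglobin, and Crp, the pentraxin gene. With Aloxe3 replicate 7 left out, 1 gene of the list was past the threshold (Fgb), with β-gal replicate 1 left out there were 3, and with no filter on low values there were 0. Fga went from 28.8 ± 3.2 to 57.6 ± 3.8 RPKM (SD, n = 3 each; log2 fold change 0.98, SE 0.082, limma adjusted p = 0.00781), with Fgb at 0.64 and Fgg at 0.87 on the same scale. Hp went from 824.8 ± 25.6 to 1175.2 ± 35.3 RPKM (SD, n = 3 each; log2 fold change 0.51, SE 0.045, limma adjusted p = 0.00781), and Crp from 3.05 ± 0.079 to 5.13 ± 0.59 RPKM (SD, n = 3 each; 0.59, SE 0.073, adjusted p = 0.0261). Crp was not past the threshold in 5 of the 6 fits with 1 library left out (all except that without Aloxe3 replicate 9), where its adjusted p was 0.0885 to 0.128, nor without a filter, where it was 0.146. Among genes of the list not called, log2 fold changes were 0.45 for Apcs, 0.25 for Cp, 0.24 for Lbp and -0.11 for Serpina1a. Each of these had a limma unadjusted p under 0.05. In the other tested genes, serum amyloid genes apart, they ran from 0.01 for Itih3 to 0.22 for Orm3, with 0.04 for Hpx and 0.03 for Lcn2. None of the 4 serum amyloid genes passed. The log2 fold changes of the acute phase members were 0.01 for Saa1 (SE 0.073), -0.10 for Saa2 (SE 0.057) and 0.05 for Saa3 (SE 0.161). Saa4, the constitutive member, was at 5.44, 7.33 and 7.28 RPKM in the β-gal libraries and at 10.3, 11.4 and 10.4 RPKM in the Aloxe3 libraries, which did not overlap (log2 fold change 0.61, SE 0.10, limma adjusted p = 0.0657).

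**Figure D3:**
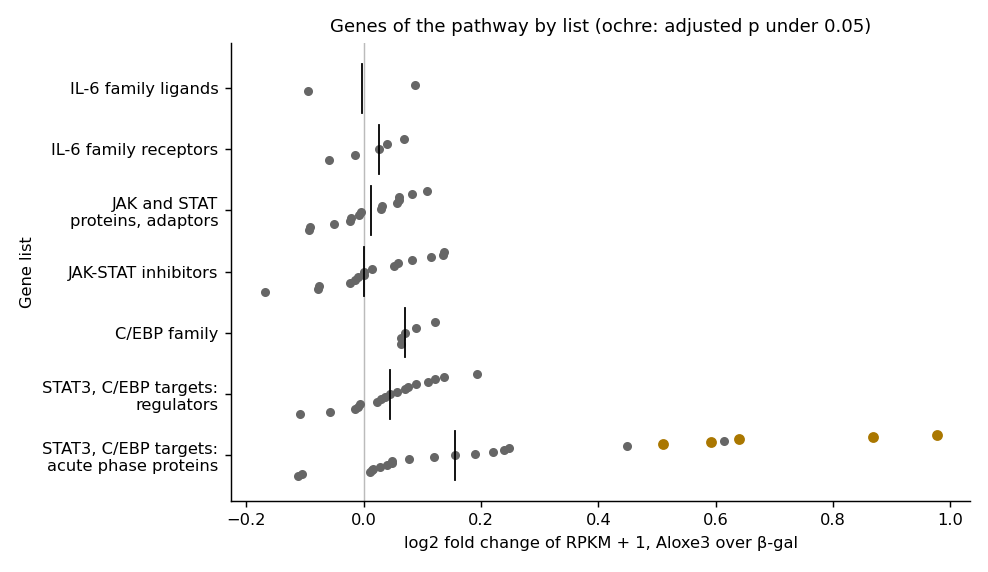
Log2 fold change of RPKM + 1 (x axis, Aloxe3 over β-gal) of every tested gene in 7 lists of the pathway (rows), with a black line at the median of each list. Ochre points are past an adjusted p of 0.05 over all genes, and all 5 are in the list of acute phase proteins, whose values reach 0.98, while the other 6 lists lie between -0.17 and 0.19.

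Against the members of the route, the gap was seen in each library. The level of Fga relative to Socs3 was 6.47, 6.58 and 7.86 in the β-gal libraries and 14.6, 11.5 and 11.3 in the Aloxe3 libraries, a 1.78-fold change. Relative to Stat3 it went from 1.16 ± 0.091 to 2.27 ± 0.24 (SD, n = 3 each), and relative to Cebpb from 0.286 ± 0.032 to 0.537 ± 0.058 (SD, n = 3 each). Hp relative to Socs3 was 202, 192 and 204 with β-gal and 290, 255 and 219 with Aloxe3. In each of these ratios every Aloxe3 library was above every β-gal library. Since Fga and Hp were taken here because they had passed the threshold, these ratios are a description and carry no test.

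**Figure D4:**
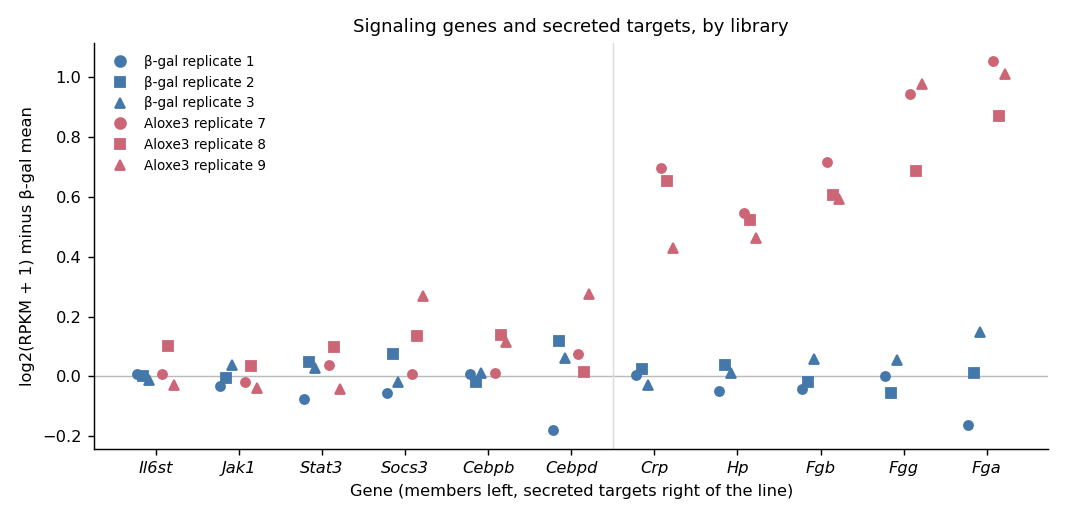
Level of 6 genes of the route and of the 5 secreted targets in each library, as log2(RPKM + 1) minus the mean of the β-gal libraries (y axis), with blue for β-gal and red for Aloxe3. The signaling genes stay between -0.180 and 0.274 in every library, with Aloxe3 replicate 9 highest for Socs3 and Cebpd, while the secreted targets of the Aloxe3 libraries lie from 0.429 to 1.053.

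The direction of the small differences depended on the library left out for those nearest to 0. Over 13 alternatives, 0 of the 9 genes passed the threshold in any, and the smallest adjusted p of any was 0.27, that of Cebpb. Socs3, Cebpb, Cebpd, Osmr and Lifr stayed above 0 in every alternative in which they were tested, with log2 fold changes of 0.071 to 0.20 for Socs3 and 0.064 to 0.13 for Cebpb when 1 library was left out. Il6ra, Il6st, Jak1 and Stat3 changed sign in at least 1 alternative. Without Aloxe3 replicate 9 their log2 fold changes were 0.024, 0.054, 0.008 and 0.067. Cebpb had an unadjusted p under 0.05 after quantile normalization and without Aloxe3 replicate 7, and Socs3 in the latter.

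**Figure D5:**
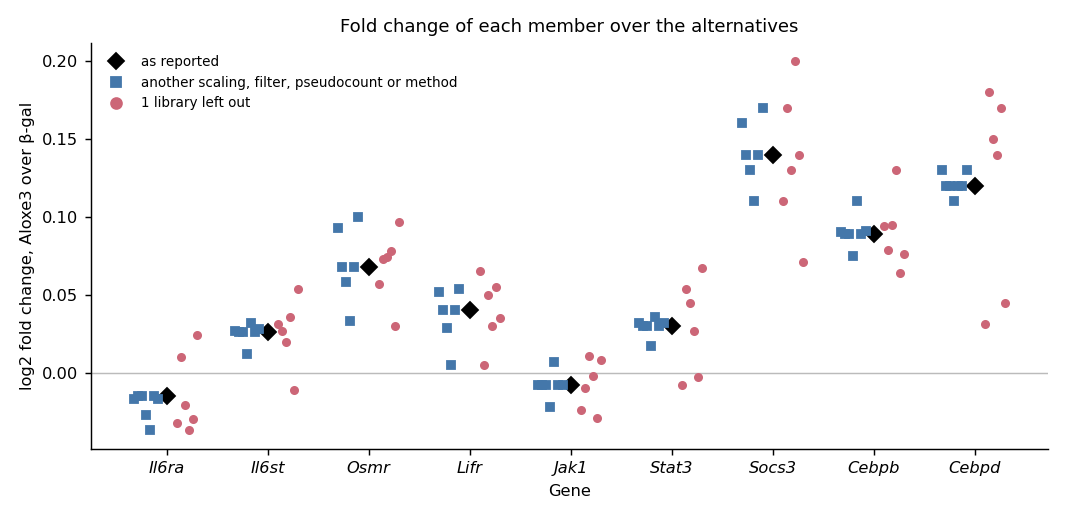
Log2 fold change (y axis, Aloxe3 over β-gal) of the 9 tested genes under each alternative. Black diamonds are the values as reported, blue squares another scaling, filter, pseudocount or method, and red circles fits with 1 library left out. The points of Socs3, Cebpb and Cebpd are all above 0, from 0.031 to 0.20, and those of Il6ra, Il6st, Jak1 and Stat3 lie on both sides of it.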

How the data were processed

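RNA from 6 libraries of primary murine hepatocytes, 3 given adenovirus encoding β-gal and 3 encoding Aloxe3, was sequenced in a single run with single reads of 50 bases. The authors aligned reads with STAR 2.0.4b to Ensembl release 76 (GRCm38.p2 per the labels), counted unique unambiguous reads per gene with featureCounts 1.4.5, and deposited RPKM values for 41388 genes. The step from counts to RPKM is not given in the sources used here. Whether counting used strand is not given either. Symbols and coordinates come from GENCODE M21 (GRCm38), in which 40340 identifiers matched.

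The steps of the deposited RPKM values gave the library size in reads, and reads per gene within 0.02 of a whole number, with the GENCODE exon length for 16548 genes and the smallest length that gives whole reads for 8440. A single read on 1 kb adds 0.0308 to 0.0392 RPKM, by library. Pairs of replicates were further apart than counting noise allows (chi-square per degree of freedom 3.24 to 8.99, with both pairs over 8 holding Aloxe3 replicate 9), and all were kept.

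Tests were made on log2(RPKM + 1) in limma 3.58.1 in R 4.3.3 (eBayes with trend, two-sided, Benjamini-Hochberg over 12693 genes that reached a mean of 0.5 RPKM), and scripts were tested on simulated data. Python 3.11.15 and scipy 1.17.1 were used for the exact tests. The 10 genes, the gene lists and the tests were chosen with earlier results of these data known. In each pathway list the genes called and the 2 with the smallest unadjusted p were named, together with the fibrinogen genes, Saa1, Saa2 and the highest gene of each marker list, and other genes were chosen after their values were seen. Also named were the genes most like Stat3 and Socs3 over the libraries, except for a result that is not reported here. Alternatives were a pseudocount of 0.1, no filter, a filter at 5 RPKM, a rescaling that equalised library medians, quantile normalization, eBayes without trend, voom on the derived reads, and each library left out in turn.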

Additional observations from a re-analysis of the deposited data

How the results depend on the processing

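No paired analysis was possible because the groups share no replicate numbers. The number of all genes called was 50, with 7 without a filter on low values, 173 with voom on derived reads, and 6 (without Aloxe3 replicate 7) to 19 (without Aloxe3 replicate 9) when 1 library was left out. Of the pathway genes, 5 were called, 0 without a filter, 7 with voom and 1 to 5 when 1 library was left out (1 without Aloxe3 replicate 7 and 3 without β-gal replicate 1). The direction reversed in 8 of 114 combinations of a gene of the route and an alternative, all with values near 0: Jak1 had 0.007 with quantile normalization, and leave-one-out ranges crossed 0 for Jak1 (-0.029 to 0.011), Il6ra (-0.037 to 0.024), Il6st (-0.011 to 0.054) and Stat3 (-0.008 to 0.067). The other 106 kept their direction, and Aloxe3 stayed past the threshold in every alternative. Without a filter 24989 genes were tested; for this alternative and for voom the cause was not tested. The filter at 5 RPKM left 6 of the 10 genes.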

Other observations

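Among the genes whose level followed Stat3 most closely over the 6 libraries were Txnl4b, with a Pearson r of 0.994, and Sult1d1, with 0.985. For Socs3 they were Serbp1, with 0.992, Zfp882 and AI480526, with 0.988 each. With 6 libraries, 203 tested genes had an r above 0.9 with Stat3 and 226 with Socs3, so these are descriptions of the ranking and carry no test. Among the 9 genes of the route, the r with Stat3 ran from -0.477 for Lifr to 0.792 for Osmr, with 0.172 for Cebpb and 0.173 for Cebpd, and the r with Socs3 from -0.433 for Il6ra to 0.778 for Cebpd, with -0.172 for Jak1 and 0.077 for Stat3. These points share libraries and their scaling.

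Markers of other cell types were also measured. The summed level of 8 endothelial markers was 32.8 to 37.6 RPKM with β-gal and, with Aloxe3, 32.5 to 37 RPKM, led by Cdh5, and that of 8 stellate cell markers 4.55 to 5.02 and 4.39 to 4.92 RPKM, led by Col1a1, with Lrat listed at 0 throughout. The 6 cholangiocyte markers summed to 1509.2 to 1592.7 RPKM with β-gal and, with Aloxe3, 1576.8 to 1716.0 RPKM, nearly all of it Spp1, with Krt19 at 32.9 to 51 RPKM and Sox9 at 38.3 to 49.3 RPKM, while Krt7 and Cftr were below the filter. The 7 lymphocyte markers summed to 0.131 RPKM or less, led by Cd79a. The summed level of the 10 hepatocyte markers was 5200.6 to 5231.9 RPKM with β-gal and, with Aloxe3, 5006.2 to 5171.5 RPKM, most of it Alb, and of its members 3 had an unadjusted p under 0.05 in the lower direction (Ttr, Apoa1 and Serpina1a) and 1 in the higher (Cps1), against 5.42% and 7.31% of all tested genes. None of these lists was tested as a list, and their part in the levels of the route was not tested.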
